A study of Mus musculus with 27 samples.

Results

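Ribosome biogenesis and nucleolar genes were followed through 27 samples of mouse B cells: 40 listed genes of the 30735 genes in the table. The 40 were taken by name, and the values of a gene's transcripts were added together. All 40 were found in the table, and all passed the filter on low values in every comparison. They cover RNA polymerase I transcription (4 genes), the box C/D (3) and box H/ACA (3) small nucleolar ribonucleoproteins, small subunit processing (13), large subunit assembly (12) and multifunctional nucleolar proteins (5).

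Ribosomes are made in the nucleolus, where RNA polymerase I transcribes a long precursor of the ribosomal RNAs. Small nucleolar ribonucleoproteins modify that precursor, and large complexes fold, cut and assemble it into the small and the large subunit. Many of the genes involved are known targets of MYC, a transcription factor that drives growth, and they are known to be switched on when a resting B cell starts to divide.

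The study used mice of 3 c-myc Igh transgenic lines, called hv, cr and co, whose names the labels do not explain, and wild-type (wt) mice without a transgene. Resting samples (n = 4) were B220-purified splenic B cells of healthy mice, 1 each of wt, cr, co and hv, with no treatment, and LPS samples (n = 4) were cells of these 4 genotypes after 2 days with LPS, a bacterial lipopolysaccharide that makes B cells grow and divide. Each control group therefore held 1 sample per genotype, and 6 of the 8 controls came from transgenic mice. Lymphoma samples (n = 19) were B220-purified malignant B cells from lung (12), mesenteric node (4) or peripheral node (3), of hv (7), cr (7) and co (4) mice, plus T39, a lung lymphoma that 1 label calls hv and another co. No ages are given. The 4 samples of a control group are of 4 genotypes, so their spread holds differences between mice and genotypes. The labels do not say whether a resting and an LPS sample of 1 genotype shared a mouse, or whether each lymphoma of a line came from a separate mouse, and p-values speak of the spread among these samples.

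Estimated depth was 11531400 to 32032600 read pairs per sample. B-cell markers (8 genes) were present in all groups but not at 1 level. They summed to 2689 to 4997 TPM at rest, 1160 to 2279 with LPS and 1343 to 3892 in lymphomas. Against resting cells 6 of the 8 were called lower with LPS (median log2 fold change -1.08) and 2 in lymphomas. T-cell markers (8 genes) summed to at most 101.6 TPM at rest, 22.28 with LPS and 190.9 in lymphomas, with medians of 43.28, 15.27 and 18.52 TPM. Markers of red cell precursors (9 genes) summed to 11750 to 112500 TPM at rest, 175.5 to 2218 with LPS and 16.4 to 1132 in lymphomas, macrophage markers (10 genes) to 161 to 908, 5.57 to 54.2 and 11.8 to 312 TPM, and neutrophil markers (8 genes) to 14.6 to 626, 0.177 to 14.9 and 0.389 to 291 TPM in the same order. These lists moved with the comparisons against resting cells, and their part in the results below was not tested. In bulk samples fewer cells of a type and less RNA per cell cannot be told apart, and TPM (the unit of the table) gives shares of a sample's RNA and not amounts per cell. A predicted gene, Gm10800, took 18.6% of all TPM in the cr LPS library, 3.65% in wt resting, 2.70% in hv LPS and 3.08% in the cr T6 lymphoma, and under 1% in the others. Another, Gm20594, took 34.3% in the cr T35 lymphoma, 13.7 to 22.9% in the other lymphomas and 10.9 to 19.7% in controls. The cr LPS library had the lowest value of its group for 39 of the 40 genes. Among lymphomas, hv T15 from a peripheral node stood apart with the lowest value for 24 of the 40.

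The 40 genes differed widely in level. Npm1 (nucleophosmin, a histone and ribosome chaperone of the nucleolus, chr11:33152287-33163206, GRCm38) was the highest, with mean TPM of 807 ± 117 (SD, n = 4) at rest, 3420 ± 810 (SD, n = 4) with LPS and 1893 ± 609 (SD, n = 19) in lymphomas. Next came Nop56 and Nop58, the core proteins of box C/D particles, which place methyl groups on ribosomal RNA, at 190 ± 41.1 and 187 ± 19.1 TPM (SD, n = 4) at rest. Bysl, needed for late steps of small subunit maturation, was the lowest, at 6.27 ± 0.572 TPM (SD, n = 4) at rest, 19.7 ± 3.34 (SD, n = 4) with LPS and 10.52 ± 2.79 (SD, n = 19) in lymphomas. TPM is per length, but these levels sum all transcripts of a gene, also those not typed protein-coding. Such transcripts gave on average 4.70% of Npm1, 55.4% of Nop56, 53.3% of Nop58 and 90.4% of Rrp1b TPM at rest. The order of the genes may therefore differ on protein-coding transcripts alone. Together the 40 genes summed to 2652 ± 360 TPM (SD, n = 4) at rest, 8302 ± 1766 (SD, n = 4) with LPS and 5490 ± 1218 (SD, n = 19) in lymphomas.

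**Figure D1:**
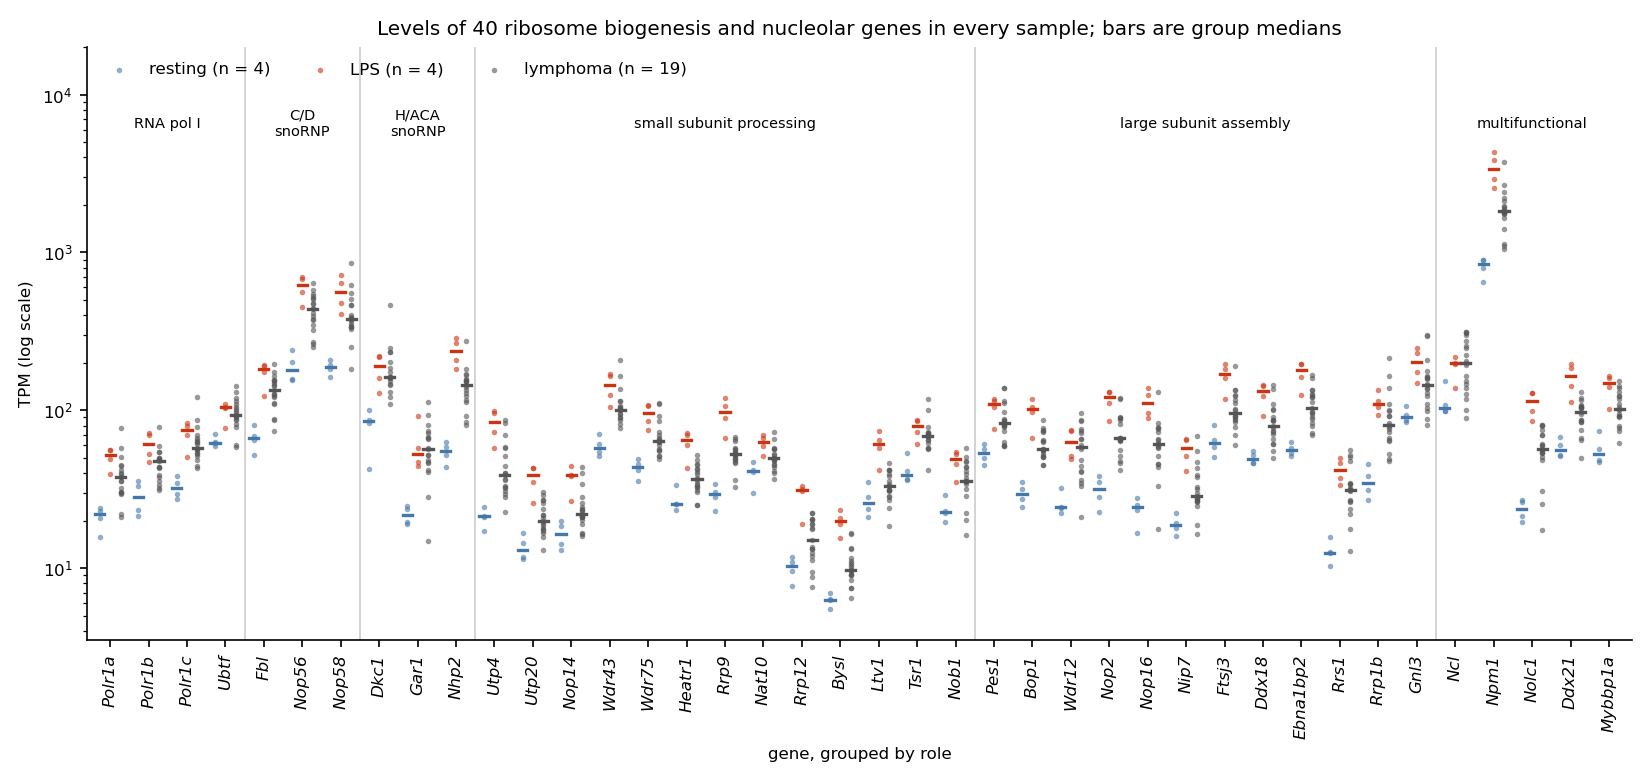
TPM (log axis) of each of the 40 genes in every resting (blue), LPS (red) and lymphoma (grey) sample, grouped by role, with bars at the group medians. The LPS points lie above the resting points for 39 of the 40 genes, Ncl being the exception, and 383 of the 760 lymphoma values lie between the resting maximum and the LPS minimum of their gene.

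The canonical E-box CACGTG, the sequence that MYC with its partner MAX is known to bind, was searched in the RefSeq promoter windows (250 bases before to 50 after each gene's start, GRCm38.p6). It reads the same on both strands, so each match was counted once. Windows were found for 35 of the 40 genes; Fbl, Rrp12, Bop1, Rrs1 and Npm1 had none in the table. Of the 35 genes, 8 held the motif (22.9%), against 12.1% of 8838 genes tested in LPS against resting and 8.09% of 27025 genes with a window. The 8 sites follow, each with the motif in capitals, its GRCm38.p6 position and its strand, because they show how close to the start it lay.
Ltv1 (chr10:13193092-13193121, minus strand): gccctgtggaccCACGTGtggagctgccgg
Mybbp1a (chr11:72441355-72441376, plus strand): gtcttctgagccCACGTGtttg
Nop2 (chr6:125131811-125131840, plus strand): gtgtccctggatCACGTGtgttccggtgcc
Pes1 (chr11:3963965-3963994, plus strand): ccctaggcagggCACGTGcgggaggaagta
Tsr1 (chr11:74898092-74898121, plus strand): tcacttggtgcaCACGTGgactgcagaatg
Utp20 (chr10:88826765-88826789, minus strand): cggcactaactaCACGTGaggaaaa
Utp4 (chr8:106893643-106893672, plus strand): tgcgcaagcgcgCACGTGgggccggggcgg
Wdr43 (chr17:71616220-71616249, plus strand): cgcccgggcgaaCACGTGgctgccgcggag

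In 7 of these 8 genes the motif lay after the annotated start, with its first base between position 3 (Pes1) and position 41 (Mybbp1a) of the transcript. Nop2 was the exception, with the motif 60 bases before the start. Among all matches in tested genes, 14.1% of 1294 lay after the start, and that stretch is 16.7% of the window. A match is a description of the letters and not a measured binding site, and a gene with no match in this window may hold the motif elsewhere.

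After 2 days of LPS all 40 genes were higher than in resting cells. All 40 passed the test (limma, adjusted p under 0.05 over all genes), where 25.2% of the 11999 genes tested were called higher. The median log2 fold change of the 40 was 1.34, against -0.16 over all genes tested, and single genes ranged from 0.61 to 2.23. For 39 of the 40 every LPS sample exceeded every resting sample, which held for 22.8% of all genes tested.

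Among genes of RNA polymerase I transcription, Polr1a, the largest subunit of the enzyme (chr6:71909053-71979356), stood at 20.9 (wt), 24.2 (cr), 22.9 (co) and 15.8 (hv) TPM at rest and at 49.0, 39.4, 56.2 and 55.8 TPM with LPS. Polr1b, the second largest (chr2:129100995-129126594), stood at 21.4, 33.2, 35.8 and 23.3 TPM at rest and at 52.5, 46.8, 69.6 and 72.2 TPM with LPS in the same order. Neither gene overlapped between the groups, and the log2 fold changes were 1.22 ± 0.19 (SE; adjusted p = 0.00016) and 1.07 ± 0.22 (SE; adjusted p = 0.0011). Polr1c, a subunit shared with RNA polymerase III, rose by a log2 fold change of 1.09. Ubtf, the upstream binding factor that opens ribosomal DNA for transcription, had the smallest rise of the 40, from 59.5 to 70.4 TPM at rest to 77.1 to 109 TPM with LPS (log2 fold change 0.61 ± 0.17 SE, adjusted p = 0.0078).

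All 6 genes of the small nucleolar ribonucleoproteins rose. Fbl, the methyltransferase of box C/D particles (fibrillarin, chr7:28169748-28179269), measured 52.1 (wt), 68.3 (cr), 80.8 (co) and 64.5 (hv) TPM at rest and 174, 122, 191 and 192 TPM with LPS. Every LPS value lay above every resting one (log2 fold change 1.34 ± 0.20 SE, adjusted p = 0.00013). Nop56 and Nop58 rose by 1.65 and 1.55 on the same scale. In box H/ACA particles, which convert uridine to pseudouridine, the core protein Nhp2 (chr11:51619735-51623714) measured 43.5, 58.2, 62.7 and 52.4 TPM at rest and 208, 182, 285 and 268 TPM with LPS. Its groups did not overlap, and its log2 fold change was 2.09 ± 0.20 (SE; adjusted p = 5e-06). Its partners Gar1 and Dkc1, the pseudouridine synthase itself, rose by 1.38 and 1.24.

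The 13 genes of small subunit processing rose by 0.63 to 1.88, with a median of 1.14. Utp4, a subunit of the first complex to bind the nascent precursor, rose most, from 17.1 to 24.3 TPM at rest to 57.8 to 98.3 TPM with LPS. Wdr43, Wdr75 and Heatr1 of the same complex rose by 1.22, 1.09 and 1.14. Rrp9, a protein of the U3 particle, rose by 1.67, Utp20 and Nop14, further members of the processing machinery, by 1.36 and 1.13, and Rrp12 by 1.41. The late-acting factors Ltv1, Tsr1 and Nob1, the nuclease that makes the final cut of the small subunit RNA, rose by 1.11, 0.86 and 0.96. Nat10, which acetylates small subunit RNA, had the smallest rise of this class, from 41.6 (wt), 40.4 (cr), 47.3 (co) and 29.8 (hv) TPM at rest to 59.4, 51.1, 66.7 and 69.4 TPM with LPS (0.63 ± 0.19 SE, adjusted p = 0.012).

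The 12 genes of large subunit assembly rose by 0.93 to 2.23, with a median of 1.53. Nop16, a factor of early large subunit particles (chr13:54584185-54590090), showed the largest rise of the 40. It measured 16.6 (wt), 27.7 (cr), 25.2 (co) and 23.4 (hv) TPM at rest and 96.7, 89.9, 125 and 138 TPM with LPS, a log2 fold change of 2.23 ± 0.21 (SE; adjusted p = 4e-06), or 4.68-fold on TPM + 1. The 3 proteins of the PeBoW complex, which acts on the precursors of the large subunit RNAs, rose by different amounts: Bop1 by 1.65, Wdr12 by 1.22 and Pes1 by 0.93. Nop2, a methyltransferase of large subunit RNA, rose by 1.85 and Gnl3, the GTP-binding protein nucleostemin, by 1.08. The assembly factors Ebna1bp2 and Rrp1b rose by 1.56 and 1.64, Nip7 from 15.9 to 22.4 TPM at rest to 41.02 to 66.05 TPM with LPS, and Rrs1, which helps to bring in the 5S particle, by 1.63. Ftsj3, an RNA methyltransferase, and Ddx18, an RNA helicase, rose by 1.34 and 1.29.

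Of the multifunctional proteins, Nolc1, a chaperone of small nucleolar ribonucleoproteins (chr19:46075863-46085528), rose from 19.6 (wt), 27.1 (cr), 26.1 (co) and 21.5 (hv) TPM to 99.5, 85.0, 129 and 129 TPM (2.17 ± 0.19 SE, adjusted p = 3e-06). Npm1 rose from 646, 897, 890 and 794 TPM to 2933, 2569, 4323 and 3857 TPM (2.06 ± 0.21 SE, adjusted p = 8e-06). Ddx21, an RNA helicase of the nucleolus, rose by 1.42 and Mybbp1a, a nucleolar MYB-binding protein, by 1.30. Npm1 has near-identical processed copies in the mouse genome, and how reads were divided between them and the gene could not be seen, so its level is uncertain. Ncl, nucleolin (chr1:86344719-86359400), was the only gene of the 40 whose groups overlapped: it measured 107, 98.6, 153 and 98.8 TPM at rest and 138, 197, 201 and 219 TPM with LPS. The co resting value lay above the wt LPS value, and the log2 fold change was 0.72 ± 0.21 (SE; adjusted p = 0.0093). The call on Ncl did not hold on protein-coding transcripts alone (0.38, adjusted p = 0.12) or without the libraries above 1% Gm10800 (0.54, adjusted p = 0.091).

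**Figure D2:**
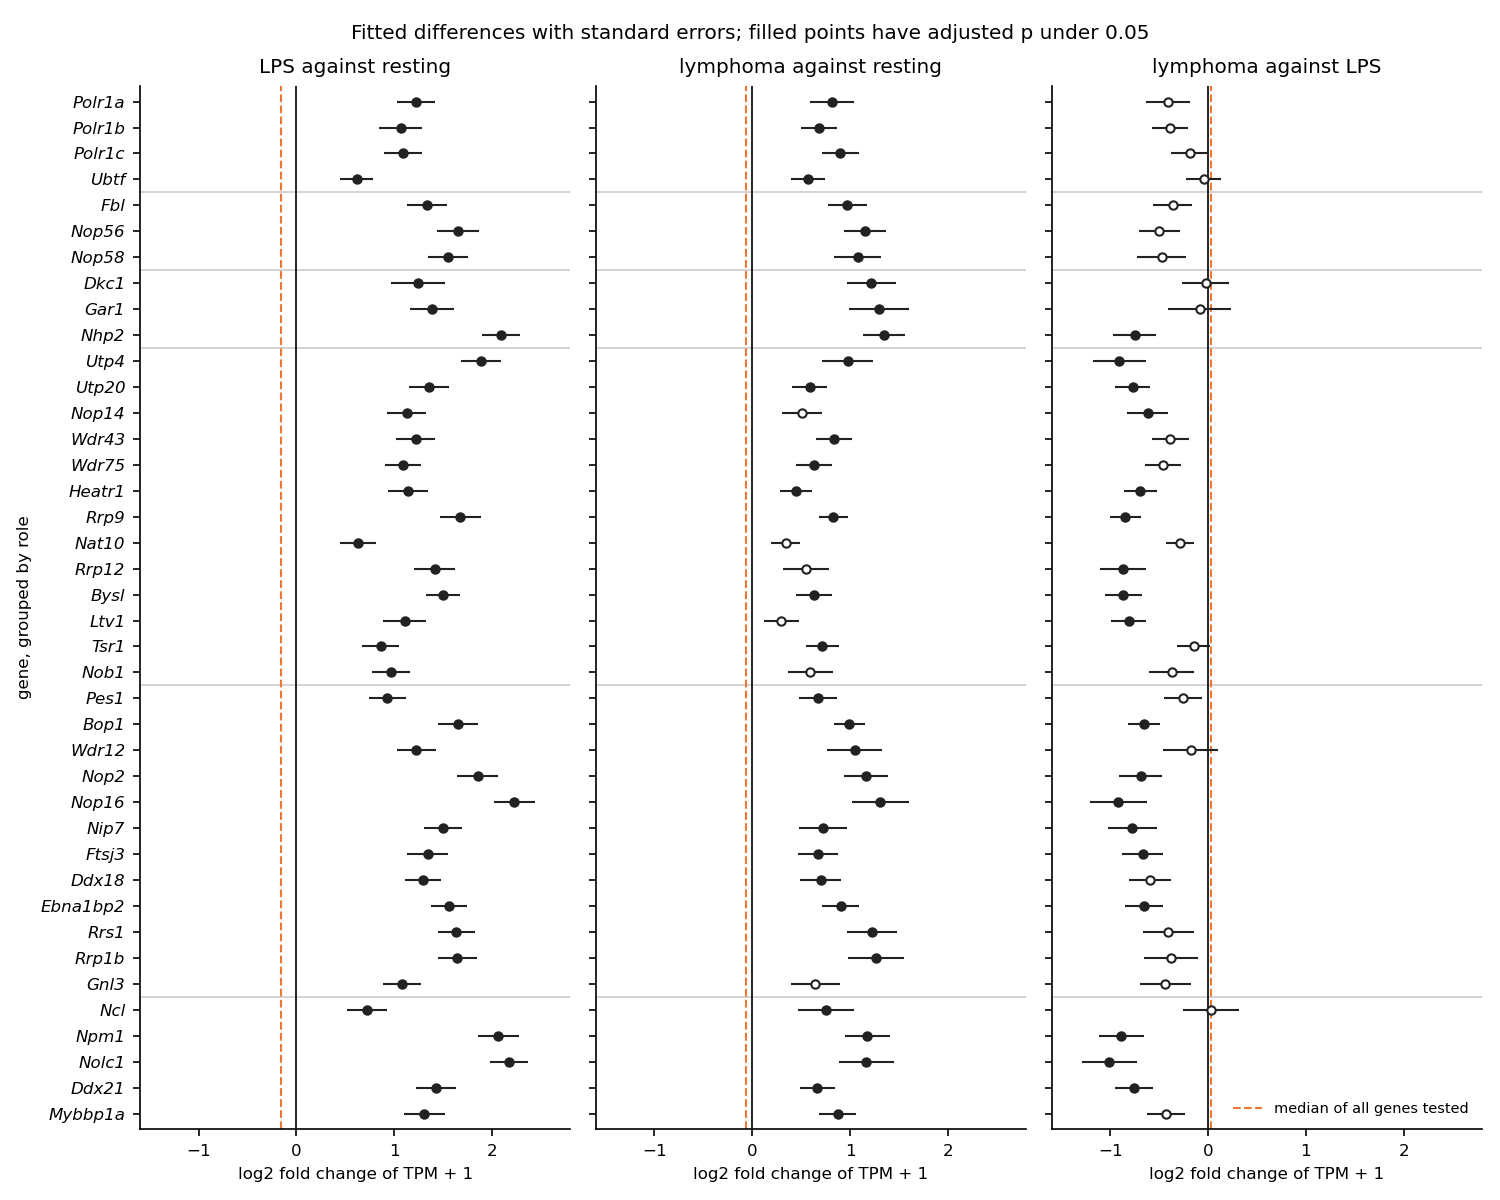
Log2 fold changes of TPM + 1 with standard errors for each of the 40 genes in 3 comparisons; filled points have an adjusted p under 0.05 and the dashed line is the median of all genes tested. All 40 points are filled and above 0 for LPS against resting, 34 for lymphoma against resting, and 18 are filled and below 0 for lymphoma against LPS.

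The rise was present in each genotype taken alone, with 40 of 40 genes higher with LPS in wt, cr, co and hv. Mean differences over the 40 genes were 1.43 in wt, 0.94 in cr, 1.36 in co and 1.75 in hv on the log2 scale. After median-of-ratios scaling, which sets the typical gene level in each library, they were 1.37, 1.14, 1.38 and 1.45, so much of the spread between genotypes went with the scaling. With 1 sample per genotype and treatment these differences between genotypes have no replicate check. Of 20 cell-division genes, 19 were called higher with LPS (median 2.23), so the rise in the 40 genes came with a rise in division genes.

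Myc itself did not follow this pattern. It measured 185 (wt), 121 (cr), 110 (co) and 89.0 (hv) TPM at rest and 54.98, 155, 115 and 136 TPM with LPS. The wt cells had the highest resting and the lowest LPS value, while the 3 transgenic genotypes were a little higher with LPS. The log2 difference of -0.18 between the group means was not called (exact permutation test, two-sided, p = 0.686, adjusted p = 0.686 over 3 comparisons). In wt cells the 40 genes stood 1.43 higher on average with LPS at a lower Myc RNA level, while in cr, co and hv both were higher. With 1 sample per genotype and treatment, the wt values have no replicate check. The labels give no time between rest and 2 days.

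MYC acts with MAX, and MXD and MNT proteins compete for MAX and are known to repress the same sites. Of 11 genes of this network tested, 6 were called lower with LPS, where 33.0% of all genes tested were called lower. Mxd1 measured 8.76 (wt), 40.4 (cr), 14.2 (co) and 35.9 (hv) TPM at rest and 1.599 to 3.006 TPM with LPS (log2 fold change -2.87 ± 0.45 SE). Haemoglobin genes took 1.15, 10.9, 5.58 and 10.99% of the TPM of those resting libraries in the same order, and the part of other blood cells in the fall of Mxd1 was not tested. Mxd4 fell from a mean of 42.6 to 8.44 TPM (-2.21 ± 0.20 SE) and Mnt from 11.6 to 2.79 TPM (-1.73 ± 0.20 SE). Max did not pass the test (42.6 and 46.1 TPM; 0.11 ± 0.17 SE).

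In lymphomas all 40 genes had higher fitted means than resting cells, and 34 were called (adjusted p under 0.05), where 14.5% of the 13239 genes tested were called higher. The 4 resting samples are shared with the comparison above. The median of the 40 was 0.82, against -0.06 over all genes tested. For 10 of the 40 every lymphoma exceeded every resting sample, which held for 529 of the 13239 genes tested (4.0%). A gene typically exceeded every resting sample in 18 of the 19 lymphomas (median over the 40 genes), with a range from 7 lymphomas for Ltv1 to 19. Without the hv T15 lymphoma 38 of the 40 were called, where 2088 of 13156 genes tested were called higher. Without the hv resting sample 25 of the 40 were called, where 1384 of 13057 genes tested were called higher.

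The largest differences from resting cells were those of Nhp2, Nop16 and Gar1. Nhp2 ranged over lymphomas from 80.7 through a median of 144 to 273 TPM, all above the resting maximum of 62.7 TPM (1.34 ± 0.21 SE, adjusted p = 3.8e-05). Nop16 ranged from 17.6 through 61.1 to 131 TPM (1.31 ± 0.29 SE, adjusted p = 0.0013), and its lowest lymphoma lay inside the resting range. Gar1, a protein that joins H/ACA particles late in their assembly, ranged from 14.8 through 57.1 to 113 TPM, the widest relative range of the 40 at 7.65-fold (1.30 ± 0.31 SE, adjusted p = 0.0024). On average 62.1% of its lymphoma TPM came from transcripts not typed protein-coding, mainly a retained-intron model of 418 bases. On protein-coding transcripts alone its log2 fold change was 1.22 (limma, adjusted p = 0.0019).

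All 4 genes of RNA polymerase I transcription and all 6 of the small nucleolar ribonucleoproteins were called higher. Polr1a ranged from 21.02 through 37.6 to 77.4 TPM (0.81 ± 0.23 SE, adjusted p = 0.0079) and Polr1b from 31.1 through 47.5 to 78.2 TPM (0.68 ± 0.19 SE, adjusted p = 0.0071). Fbl ranged from 73.6 through 135 to 196 TPM, with 18 of 19 lymphomas above every resting sample (0.97 ± 0.19 SE, adjusted p = 0.00047). Npm1 ranged from 1044 through 1836 to 3729 TPM, all above the resting maximum of 897 TPM (1.18 ± 0.23 SE, adjusted p = 3e-04). Ncl ranged from 89.2 through 201 to 315 TPM, with 12 lymphomas above every resting sample (0.75 ± 0.29 SE, adjusted p = 0.048).

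The 6 genes that did not pass were Nop14, Nat10, Rrp12, Ltv1 and Nob1 of small subunit processing and Gnl3 of large subunit assembly. Ltv1 ranged from 18.6 through 33.2 to 46.2 TPM in lymphomas against 21.2 to 35.2 TPM at rest (0.30 ± 0.18 SE, adjusted p = 0.21; 95% interval -0.07 to 0.66). Nat10 ranged from 37.0 through 49.6 to 72.3 TPM against 29.8 to 47.3 TPM (0.34 ± 0.15 SE, adjusted p = 0.079; 95% interval 0.04 to 0.64). Of the 13 small subunit genes 8 were called, and of the 12 large subunit genes 11.

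Against LPS-treated cells, 39 of the 40 genes had lower fitted means in lymphomas, and 18 were called lower (23 at an unadjusted limma p under 0.05, against 28.1% of all genes), where 8.56% of the 12880 genes tested were called lower. The median of the 40 was -0.49, against 0.03 over all genes tested. The lymphoma samples are shared with the comparison before it. Only Nolc1 did not overlap, against 2.05% of all genes tested below without overlap: it ranged from 17.5 through 57.0 to 80.2 TPM in lymphomas and from 85.0 to 129 TPM with LPS (-1.01 ± 0.28 SE, adjusted p = 0.018).

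The called genes were unevenly spread over the roles, though the difference between roles was not tested. The 4 RNA polymerase I genes and the 3 box C/D genes did not pass, with Polr1a at -0.41 ± 0.23 (SE; adjusted p = 0.24), Polr1b at -0.39 ± 0.18 (SE; adjusted p = 0.17) and Fbl at -0.36 ± 0.20 (SE; adjusted p = 0.23). Of the H/ACA genes only Nhp2 was lower (-0.75), while its partner Dkc1 ranged from 110 through 162 to 462 TPM in lymphomas against 129 to 219 TPM with LPS (-0.02 ± 0.24 SE, adjusted p = 0.96; 95% interval -0.52 to 0.47). In small subunit processing 8 of 13 were lower, among them Utp4, which ranged from 22.8 through 38.7 to 87.2 TPM (-0.91 ± 0.27 SE, adjusted p = 0.025), and Rrp9 (-0.84 ± 0.16 SE, adjusted p = 0.00085).

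In large subunit assembly 6 of 12 were lower, with Nop16 at -0.92 ± 0.29 (SE; adjusted p = 0.036) and Bop1 at -0.66, while its complex partners Wdr12 (-0.18) and Pes1 (-0.26) did not pass. Npm1 (-0.89 ± 0.23 SE, adjusted p = 0.012), Nolc1 and Ddx21 (-0.76) were lower among the multifunctional proteins. Ncl was the 1 gene with a higher fitted mean, at 0.03 ± 0.29 (SE; adjusted p = 0.96; 95% interval -0.56 to 0.62), and its sign turned without the wt LPS sample, in node lymphomas alone and on protein-coding transcripts.

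The count of 18 rested on few LPS libraries. It was 4 without the co and 4 without the hv LPS sample (Bysl, Ltv1, Rrp9 and Utp20 in both), 10 without wt and 17 without cr. Over all genes those fits called 534 of 12844, 510 of 12836, 648 of 12835 and 1067 of 12807 lower. The main fit called 1103 of 12880 lower. The count was 2 without the libraries above 1% Gm10800 (Ltv1 and Rrp9), with the median of the 40 at -0.58, where 340 of 12700 genes were called lower. With node lymphomas alone it was 2 (Nop14 and Rrp9), where 728 of 11692 genes were called lower. Calls thus fell over all genes as well as among the 40. Rrp9 was called lower in all 13 alternatives tried.

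**Figure D3:**
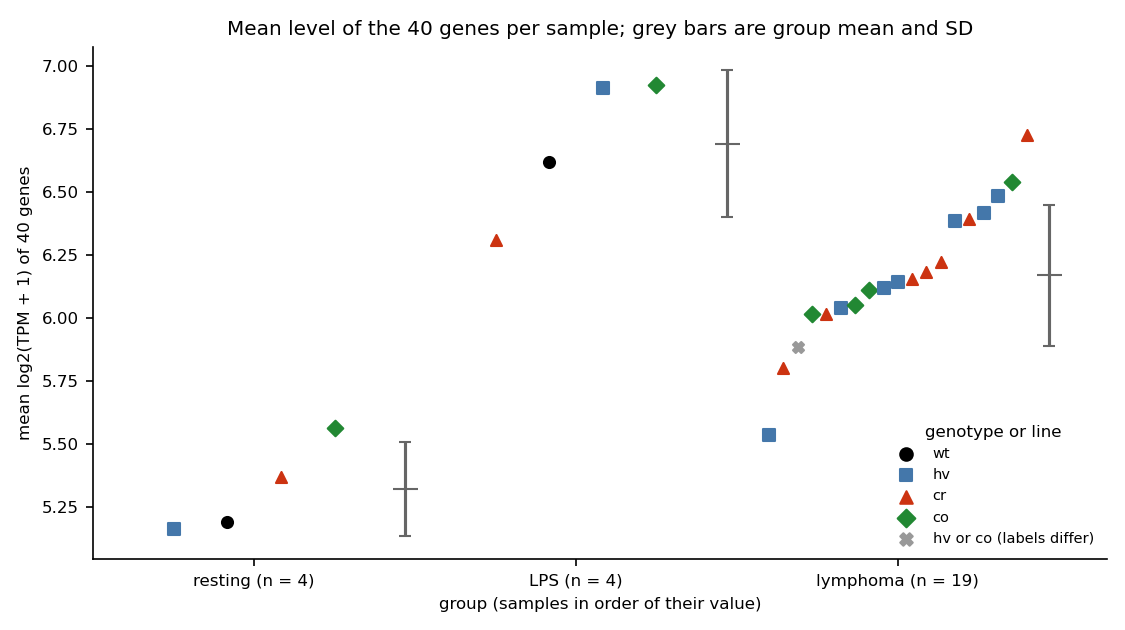
Mean log2(TPM + 1) of the 40 genes in each sample, ordered within its group, with symbols for the genotype or line and grey bars for the group mean and SD. Resting samples lie between 5.16 and 5.56 and LPS samples between 6.31 and 6.93, while lymphomas run from 5.53 (hv T15) to 6.73 (cr T1).

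The mean log2 level of the 40 genes was 5.32 ± 0.19 (SD, n = 4) at rest, 6.69 ± 0.29 (SD, n = 4) with LPS and 6.17 ± 0.28 (SD, n = 19) in lymphomas. The hv T15 lymphoma had 24 of the 40 genes at or below the resting maximum, cr T35 had 14 and T39 had 9, while cr T1, co T2 and cr T14 had none. The low place of cr T35 went with its share of Gm20594 (34.3%): its mean of the 40 was 5.80 as deposited and 6.15 after median-of-ratios scaling, where the lymphoma medians were 6.14 and 6.17. At the other end, cr T1 had 34 genes and co T2 had 30 above the lowest LPS sample. The hv T15 lymphoma was also lowest for the 20 division genes (mean log2 of 4.78 against a median of 6.38).

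The 40 genes tended to vary together over the 19 lymphomas. The median Pearson r between pairs was 0.49 (780 pairs, 93.6% positive), against 0.12 (63.4% positive) over all pairs of expressed genes. These values share libraries, depth and composition and are given as a description. Rrp9 followed the mean of the other 39 most closely (r = 0.88), with Utp4 and Nop58 next (both 0.87). Tsr1, a GTPase-like factor of late small subunit maturation (r = -0.13), and Polr1c (r = 0.02) did not follow it.

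No difference between lines or sites was called in these genes. In hv against cr, co against hv and cr, and mesenteric node against lung lymphomas, limma called none of the 40 genes and none of the 12480 genes tested (0.0%). At an unadjusted p under 0.05 there were 170 (1.36%), 406 (3.25%) and 209 (1.67%) genes in all and none of the 40. All 4 mesenteric node lymphomas were cr, and the absence of calls does not show that lines or sites are alike. Line medians of the mean log2 level were 6.14 (hv), 6.18 (cr) and 6.08 (co).

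Over the 19 lymphomas Myc ranged from 78.8 (hv T8) through a median of 164 to 362 TPM (cr T1). Lymphomas were 0.51 above resting cells on the log2 scale (exact permutation test, two-sided, p = 0.149, adjusted p = 0.224) and 0.68 above LPS cells (exact permutation test, p = 0.0679, adjusted p = 0.204), and neither difference passed. The slope of each gene on Myc, the change in log2(TPM + 1) per doubling of Myc, was positive in 31 of the 40, with a median of 0.155 against -0.04 over all genes tested. That median was 0.24 under median-of-ratios scaling (all genes -0.015). It was 0.05 (all genes 0.0067) without co T2 and cr T1, the 2 lymphomas farthest from the median of Myc in TPM. Both have high Myc. On the log2 scale used for the slope, hv T8 (6.32) lies farther from the median (7.37) than co T2 (8.23), and it was kept in that fit. Over all 19 lymphomas none of the 40 was called, where 0.0237% of 12653 genes tested were called in either direction. At an unadjusted p under 0.05 there were 12 of the 40, against 14.5% of all genes. Without co T2 and cr T1 there were 6 of the 40, against 1499 of 12565 genes.

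The steepest slopes were those of Rrp1b, an RRP1 homologue of the large subunit pathway (0.64 ± 0.15 SE, adjusted p = 0.074), Wdr12 (0.61 ± 0.15 SE, adjusted p = 0.09) and Gnl3 (0.49 ± 0.15 SE, adjusted p = 0.13). Rrp1b ranged over lymphomas from 47.5 through 80.6 to 216 TPM, Wdr12 from 20.9 through 58.3 to 96.8 TPM and Gnl3 from 80.8 through 144 to 301 TPM. Transcripts not typed protein-coding gave on average 85.8% of Rrp1b, 48.9% of Wdr75, 27.6% of Wdr12 and none of Gnl3 TPM in lymphomas. Myc slopes and correlations were not computed on protein-coding transcripts alone. The lowest slopes were those of Rrp12, an export factor of both subunits (-0.24 ± 0.16 SE, adjusted p = 0.51), Polr1c (-0.16 ± 0.13 SE, adjusted p = 0.62) and Ltv1 (-0.12 ± 0.12 SE, adjusted p = 0.72). Under median-of-ratios scaling 3 of the 40 were called, Rrp1b (0.64, adjusted p = 0.029), Wdr75, a small subunit factor (0.44, adjusted p = 0.039), and Wdr12 (0.63, adjusted p = 0.041), where 1.72% of 12590 genes were called (94 with a positive and 122 with a negative slope). With 100000 resamples, permutation tests of r (Pearson) and of rho (Spearman) called no gene of the 12653, with lowest adjusted p of 0.0506 and 0.152, while 13 and 11 of the 40 had an unadjusted p under 0.05, against 14.4% and 13.4% of all genes.

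The relation of single genes with Myc was also measured as a correlation over the 19 lymphomas. For Wdr12, r was 0.69 (permutation p = 0.00102, adjusted p = 0.112) and rho was 0.73 (permutation p = 5e-04, adjusted p = 0.152). Its r was 0.67 without co T2 and cr T1. For Rrp1b, r was 0.73 (permutation p = 0.00028, adjusted p = 0.0818), rho was 0.74 (permutation p = 0.00054, adjusted p = 0.152) and r was 0.61 without those 2. For Gnl3, r was 0.62 (permutation p = 0.00408, adjusted p = 0.155), rho was 0.55 (permutation p = 0.0155, adjusted p = 0.251) and r was 0.43 without them. The lymphomas' sample names are written in 2 styles, joined (9, all from lung) and separated (10), and within these r was 0.94 and 0.75 for Wdr12, 0.76 and 0.71 for Rrp1b and 0.45 and 0.71 for Gnl3.

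**Figure D4:**
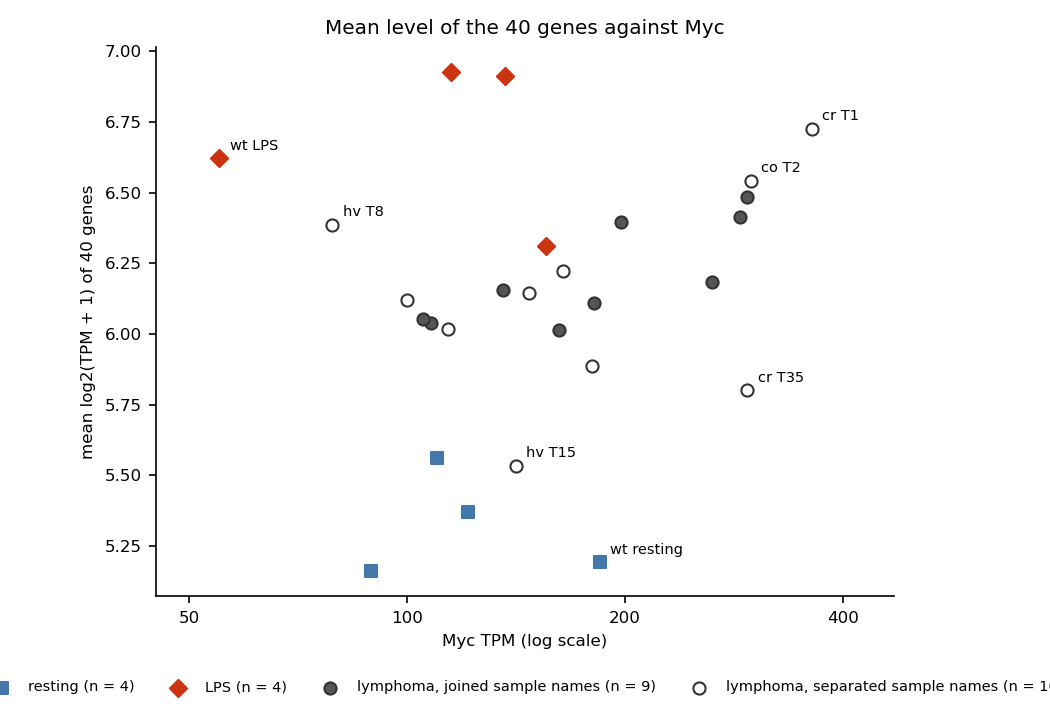
Mean log2(TPM + 1) of the 40 genes against Myc TPM (log axis) for resting, LPS and lymphoma samples, with filled and open circles for lymphomas whose sample names are joined or separated. The wt LPS sample has the lowest Myc of all (54.98 TPM) with a mean of 6.62, and among lymphomas hv T8 (78.8 TPM, mean 6.39) and cr T35 (295 TPM, mean 5.80; 34.3% of its TPM in Gm20594) lie far from the general trend.

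The mean of the 40 genes and Myc had r = 0.41 and rho = 0.43 over the 19 lymphomas. The r was 0.79 for joined names (n = 9) and 0.28 for separated names (n = 10). Without co T2 and cr T1, which both have separated names, r over the other 17 lymphomas was 0.15, so the value over all 19 depended on those 2. They were chosen by distance from the median in TPM, and both have high Myc and a high mean. The hv T8 lymphoma, with the lowest Myc, was kept among the 17. The value of the joined names does not include co T2 or cr T1. Among those 17, cr T35 had the highest Myc (295 TPM), with a mean of 5.80 as deposited and 6.15 after median-of-ratios scaling. After median-of-ratios scaling r was 0.53 over the 19 and 0.28 without the 2. The mean of the 40 had a like r with the estimated read pairs of the library (r = 0.43, rho = 0.38), whose part in the relation with Myc was not tested. The cr T1 lymphoma had the highest Myc and the highest mean (6.73), whereas hv T8 had the lowest Myc with a mean of 6.39. Against the division genes the mean of the 40 had r = 0.62.

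A wider list of 112 ribosome biogenesis genes that were not among the 40 was counted in the same comparisons. In LPS against resting 90 were called higher (against 25.2% of all genes) and 20 were not called, with a median of 0.97. The 2 called lower were Dhx9, an RNA helicase, at -1.01, and Nop53 at -0.59, and the highest were Lyar (2.39), Ruvbl2 (2.39), an ATPase of particle assembly, and Pno1 (2.21). In lymphoma against resting 57 were higher (against 14.5% of all genes) and 55 were not called, with a median of 0.53, led by Ruvbl2 (1.44), Polr2f (1.43), a subunit common to the nuclear RNA polymerases, and Lyar (1.36). In lymphoma against LPS 35 were lower (against 8.56% of all genes), 2 higher (against 5.27%) and 75 not called, with a median of -0.43, and with Pno1 (-1.30), Lyar (-1.03) and Mrto4 (-1.01) lowest and Dhx9 (0.81) and Zfp622 (0.52) higher. Of the MYC network, 4 of 10 genes tested were called higher in lymphomas than in LPS cells, where 5.27% of all genes were: Mxd4 (2.32 ± 0.44 SE), Mnt (1.03 ± 0.23 SE), Mxd1 (0.88 ± 0.24 SE) and Mxi1 (0.86 ± 0.28 SE). Against resting cells 3 of 11 were called lower in lymphomas, where 17.4% of all genes were: Mxd1 (-1.99 ± 0.30 SE), Mycl (-1.83 ± 0.23 SE) and Mnt (-0.71 ± 0.22 SE).

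Many of the 40 genes also have transcripts not typed protein-coding in GENCODE M21, called non-coding here. The class takes in every other type, such as retained introns, and transcripts with no match in GENCODE M21. Whether each of them lacks a coding sequence was not checked. For 24 of the 40 both kinds were in the table, and the share of a gene's TPM given to the non-coding ones had a median of 44.4% at rest, 23.98% with LPS and 33.9% in lymphomas. Over all 5234 genes with both kinds that median was 31.8, 21.3 and 27.65%, so the fall with LPS was not particular to the 40. With LPS the share was lower in 21 of the 24, and in 4326 of the 5234. It did not overlap with resting in 14 of the 24 (58.3%), against 42.0% of the 5234. Wdr75 went from 74.8 (wt), 63.5 (cr), 68.3 (co) and 61.9 (hv) % at rest to 33.9, 37.8, 27.8 and 31.0% with LPS. Polr1b went from 43.2 to 48.1% at rest to 18.6 to 21.3% with LPS, and Rrp9 from 32.7 to 52.8% to 14.4 to 18.3%.

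Ncl went the other way, from 71.9 to 73.9% at rest to 76.9 to 80.9% with LPS, and was the 1 gene of the 24 higher without overlap. For Rrp1b the non-coding share was 90.4% at rest, 73.2% with LPS and 85.8% in lymphomas, so most of its TPM came from transcripts not typed protein-coding. The same held for Ncl, for Gar1 (61.5, 63.4 and 62.1%) and for Ebna1bp2 (75.0, 73.8 and 74.2%). On protein-coding transcripts alone 39 of the 40 were called higher with LPS (all but Ncl, median 1.46). By the same measure 35 were higher in lymphomas than at rest (median 0.93) and 24 lower in lymphomas than with LPS (median -0.69). Over all genes 3285 of 10546, 1967 of 11389 and 1118 of 11092 were called in these directions. Shares rest on how kallisto divided reads among transcripts that overlap, and total RNA libraries hold unspliced RNA.

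**Figure D5:**
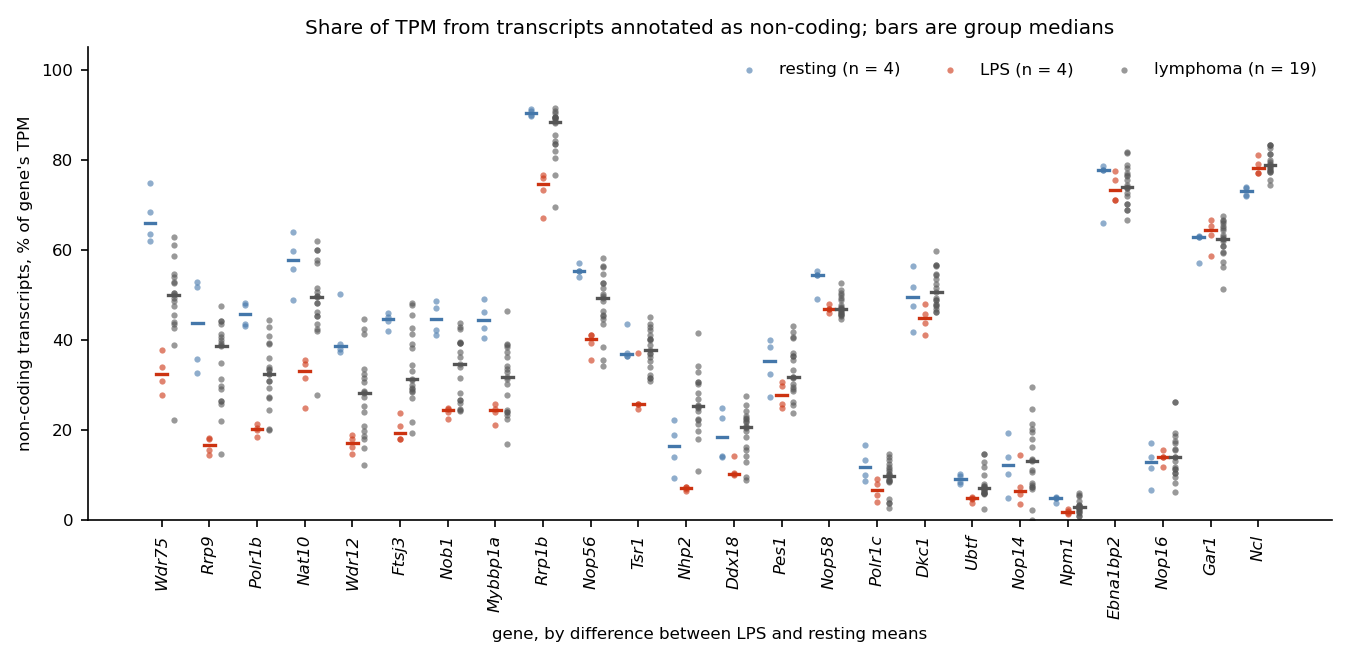
Share of each gene's TPM from transcripts not typed protein-coding (called non-coding here), in percent, for the 24 genes with both kinds. Resting (blue), LPS (red) and lymphoma (grey) samples are shown with bars at the group medians. The LPS bars lie lowest for most genes, while Ncl at the right end is higher with LPS than at rest. Over all genes with both kinds, 4326 of 5234 had a lower share with LPS.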

How the data were processed

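RNA of 27 samples of B220-purified mouse B cells was depleted of ribosomal RNA and sequenced from both ends as stranded total RNA libraries, as the labels' protocols describe. The submitters' processing notes name FastQC and kallisto 0.43, and mm10 (GRCm38) as the build. The sources used here do not state the annotation or the strand setting. Genes that overlap may hold each other's reads. TPM of 88198 transcripts, and other values per transcript (lengths and positions), were deposited by the authors. Counts were not used here, so limma was the test. Depth was estimated from TPM times effective length, where 61.7 to 76.5% of low values came out whole within 0.02 reads. It is an estimate, and it weights nothing.

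TPM were summed per gene, and symbols matched by Ensembl identifier (740 of 30735 genes had none). Transcript types came from GENCODE M21, where 97.5% of transcripts matched. A gene entered a fit when 4 or more of its samples had TPM of at least 1. The test was limma 3.58.1 on log2(TPM + 1), trended and robust, with statmod 1.5.0 and data.table (version 1.17.8) in R 4.3.3, Benjamini-Hochberg adjustment over all genes and a threshold of 0.05. Fold changes are on that scale, which understates changes of low genes. Each group comparison was fitted on its own groups, lines and sites together on 18 lymphomas without T39, and Myc slopes on all 19. Overlap counts compare the lowest and highest TPM of the groups. Myc was compared by exact permutation tests. Tables were made with pandas 2.3.3 and scipy 1.17.1 and figures with matplotlib 3.10.9, under Python 3.11.15 with numpy 2.4.6. The limma script was tested on simulated data.

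All 40 genes are named by role. Full statistics are given for the 3 called genes with the largest change in each direction, the 2 nearest 0, Ncl, Npm1, Fbl, Polr1a and Polr1b, and for the 3 largest and smallest Myc slopes. Rrp9, Bop1, Wdr75 and the transcript examples were chosen after their values were seen. The members and lists were chosen with earlier results of these data known. Of the 117 other ribosome biogenesis genes listed, 112 were matched; a list of small nucleolar RNA host genes was not analysed here. Alternatives were another pseudocount (0.1), no filter, 2 rescalings, leaving out libraries, a genotype block, site subsets and Myc covariates. Fits on protein-coding transcripts, by sample-name style with or without scaling, and without hv T15 were chosen after seeing the data.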

Additional observations from a re-analysis of the deposited data

Results flagged for a closer look

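In groups of 4 to 7 samples, 90 sets of values (the TPM of each of the 40 genes in resting and in LPS cells, and their mean level and Myc by group and line) were checked for a sample standing far from the rest of its group, and 3 were found. Chance gives about 1 in 20 such flags, which is more than were seen. Ncl in the co resting sample was 152.8 TPM against 98.6 to 107 TPM in the other resting samples. Ubtf in the cr LPS sample was 77.1 TPM against 104 to 109 TPM, and Rrp12 in the same sample was 18.9 TPM against 30.7 to 32.9 TPM. The cr LPS library is the one with 18.6% of its TPM in Gm10800, and the part of this in the 2 low values was not tested.

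Myc moved in opposite directions with LPS in wt and in the transgenic genotypes: the log2 difference was -1.73 in wt and 0.06 to 0.61 in cr, co and hv. This difference was not tested, since there is 1 sample per genotype and treatment.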

How the results depend on the processing

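All 16 alternatives of LPS against resting called 39 or 40 of the 40 genes higher, and 2531 to 3645 of all genes. A fit with the genotype as replicate block called 40. Same-genotype resting and LPS samples correlated at 0.06 (wt), 0.22 (cr), 0.34 (co) and 0.06 (hv) in their deviations from the group means, and only cr and co resting samples correlated best with their own genotype, so the samples were not treated as paired. In lymphoma against resting the count stayed within 1.5 times of 34 in all 13 alternatives (25 to 38). Leaving out a resting sample gave 25 to 34. Over all genes the 13 alternatives called 1215 to 2153 higher. In lymphoma against LPS the count was 18 in the main fit, 2 without libraries above 1% Gm10800, 2 with node lymphomas alone and 24 on protein-coding transcripts. Over all genes 1103, 340, 728 and 1118 were called lower in the same order. Without an LPS sample 4 to 17 of the 40 were called, and 510 to 1067 of all genes. For libraries left out, the fits had fewer LPS samples. The Myc slope called 3 of the 40 under median-of-ratios scaling and 2 when rescaled without Gm10800, Gm20594 and haemoglobin. It called 2 with the division list as covariate and 3 under median-of-ratios scaling with sample-name style as covariate. Over all genes these fits called 94, 26, 12 and 93 with a positive slope in the same order. They called 122, 53, 35 and 141 with a negative slope. In the other 13 alternatives 0 of the 40 were called, and the cause was not tested. The line and site comparisons gave 0 in all alternatives.

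Signs turned as follows, and the cause was not tested. Myc in LPS against resting went from -0.35 to 0.14 over the samples left out, and was positive when either wt sample was (LPS 0.14, resting 0.02). In lymphoma against LPS, Ncl ran from -0.11 (wt left out) to 0.11 (hv left out) over LPS samples left out and was -0.21 in node lymphomas and -0.0271 on protein-coding transcripts. Dkc1 ran from -0.18 (cr left out) to 0.0785 (co left out) and was 0.0075 in lung lymphomas and 0.0142 without hv T15. With median-of-ratios scaling the Myc slope of Polr1c was 0.0057 over joined names and that of Ltv1 0.0275 over separated names. Scaling moved the median of all genes by up to 0.14 (log2), from -0.16 to -0.30 in LPS against resting and from -0.06 to -0.20 in lymphoma against resting, where the median of the 40 went from 1.34 to 1.201 and from 0.82 to 0.69. The lowest TPM of the 40 genes in any sample was 5.53. The mean of the 40 had r = 0.43 with estimated read pairs over the lymphomas.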

Other observations

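The genes with positive Myc slopes were not spread evenly over the chromosomes, a pattern chosen after the values were seen. All 6 of the 40 genes on chromosome 1 (Ddx18, Ncl, Nop58, Rrs1, Wdr12 and Wdr75) had slopes of 0.34 to 0.61, with a median of 0.40, while the 34 on other chromosomes had a median of 0.13 and a range of -0.24 to 0.64. Over all 763 tested genes of chromosome 1 the median slope was 0.12 (0.11 without the 6), the highest of the chromosomes, and 64.0% were positive. Chromosome 3 had 0.12, and chromosome 19, which carries Nolc1 and Rrp12, had the lowest, at -0.21 with 19.9% positive. Chromosome 11, with 7 of the 40, had -0.13.

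Per lymphoma, the typical deviation of 530 chromosome 1 genes from their median over lymphomas was compared with that of genes elsewhere. The difference was 0.31 in cr T9, 0.22 in cr T35, 0.20 in cr T1, 0.19 in co T2 and 0.15 in cr T16, and between -0.16 and 0.07 in the other 14. Myc in these 5 was 263, 295, 362, 298 and 197 TPM, where the median was 164 TPM. In the other 14 it ran from 78.8 to 294.5 TPM. The highest of those were hv T14 (294.5 TPM) and hv T1 (288.6 TPM), with differences of 0.07 and -0.07. All of the 5 but co T2 were cr lymphomas, while cr T6, cr T14 and cr T20 had -0.06, -0.06 and -0.09. No copy number was analysed here, and whether the slopes of the 6 genes hold apart from their chromosome was not tested.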
